A study of Mus musculus with 12 samples.

Results

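*Serpine3*, *Upk3b* and *Pi15* are 3 of the 28591 genes counted in the RPE of WT and rd6 mice, and 3 of the 17768 tested genes, whose mean over the 12 libraries reached 10 normalized counts. They were chosen by name, as genes seen in these libraries to be nearly silent or strongly lower in rd6. Their rd6 values against WT are therefore given as a description without a test. A normalized count is the number of reads on a gene divided by the size factor of the library.

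RNA was sequenced from the RPE (retinal pigment epithelium) of 6 WT mice of the C57BL/6J strain and 6 rd6 mice (genotype Mfrp rd6/rd6), all 1 mo old and without any treatment named in the labels. The RPE of both eyes of a mouse went into each library. The rd6 mouse carries a spontaneous splice mutation of *Mfrp*, the gene of membrane frizzled-related protein, in every cell from conception, so the loss was not limited to the RPE or to adult life. The strain of the rd6 mice was not given in the labels.

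The RPE is the pigmented epithelium between the photoreceptors and the choroid, which recycles retinoids, engulfs shed outer segments and secretes proteins towards both sides. *Serpine3* encodes a serpin, a protein of the fold that traps serine proteases, of the same clade as the protease nexin *Serpine2*. *Upk3b* encodes uroplakin 3B, a membrane protein known from the urothelium and the mesothelium, and *Pi15* encodes a secreted protein of the CAP superfamily that was named for a weak inhibition of trypsin.

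*Serpine3* (ENSMUSG00000091155) lies on the + strand at chr14:62663667-62692243 of mm10, with 1402 bases of annotated exon. *Upk3b* (ENSMUSG00000042985) lies on the + strand at chr5:136038496-136046487, with 3530 bases of exon. *Pi15* (ENSMUSG00000067780) lies on the + strand at chr1:17601901-17630939, with 6923 bases of exon. All of them are annotated as protein-coding, and none shares a chromosome with *Mfrp* (chr9:44101729-44109187, + strand).

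The 250 bases before the annotated start are shown for *Serpine3* and *Upk3b*, because these are the genes with the lowest rd6 level relative to WT and the letters show whether their promoters share a known element. They come from RefSeq (GRCm38.p6), which gave a promoter for 2 of the 3 genes. Both strands were searched for CATGTG, the core bound by the MITF family of pigment cell factors, for the E-box CACGTG, for TAATCC of the OTX2 and CRX class, and for TATAAA. Capitals mark a match.
Serpine3, chr14:62663417-62663666, + strand: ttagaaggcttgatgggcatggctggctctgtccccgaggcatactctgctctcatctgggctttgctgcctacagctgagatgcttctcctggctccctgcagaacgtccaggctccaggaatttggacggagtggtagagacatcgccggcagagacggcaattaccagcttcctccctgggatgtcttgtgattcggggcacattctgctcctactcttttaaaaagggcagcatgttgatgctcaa
Upk3b, chr5:136038246-136038495, + strand: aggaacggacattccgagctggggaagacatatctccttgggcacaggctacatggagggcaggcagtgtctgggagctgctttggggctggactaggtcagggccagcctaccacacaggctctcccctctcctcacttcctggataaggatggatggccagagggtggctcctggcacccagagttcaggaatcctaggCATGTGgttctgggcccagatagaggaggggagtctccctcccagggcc
The *Upk3b* promoter held CATGTG once, starting 49 bases before the start, and the *Serpine3* promoter held none of the 4 elements. Of 32851 RefSeq promoters of the same length, 12.3% held CATGTG, 6.02% CACGTG, 6.25% TAATCC and 12.4% TATAAA. The GC content was 54.4% for *Serpine3* and 60.8% for *Upk3b*. A match or its absence describes these letters and not the binding of a factor.

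The libraries held 28907262 to 33152725 reads on genes, so that 3 reads, taken as the floor of detection, were worth 2.71 to 3.32 normalized counts. The targeted gene *Mfrp* (ENSMUSG00000034739) had 45442, 43233, 38949, 30132, 39040 and 43333 normalized counts in WT 1 to 6 and 25491, 27070, 27137, 29732, 20442 and 25413 in rd6 1 to 6. Its reads persisted in rd6 at a log2 difference of -0.63 ± 0.11 (SE, limma q = 0.00126), under the fold limit given below, and because the mutation acts on splicing, a count over the whole gene does not check the genotype. *Nnt*, which is partly deleted in C57BL/6J, was near the floor in both groups (WT 6.74 ± 1.69, rd6 7.90 ± 4.98 normalized counts, SD, n = 6). The 14 RPE markers summed to 1574020 to 2338840 in WT and 1487850 to 1990050 in rd6, most of it from *Ttr* and *Rgr*. The means of *Ttr* were 703801 in WT and 834620 in rd6. Of the 14, *Lrat* and *Rgr* were lower, and at an unadjusted limma p below 0.05 8 were lower and 1 higher. *Rpe65* had means of 169474 in WT and 99402 in rd6, with every rd6 library below every WT library. Its log2 difference of -0.79 (limma q = 0.0020) was under the fold limit given below. Of 12 markers of microglia and macrophages 11 were higher in rd6 (sums 16152 to 21052 in WT, 25286 to 36258 in rd6). Most of these sums came from *Csf1r* (means 17256 in WT, 18740 in rd6), the marker not called, while *Trem2* went from 51.6 to 1127. Also higher were 5 of 10 markers of the choroid endothelium. Of 12 rod markers 3 were lower by limma and DESeq2 and 1 by edgeR. Their sums were 17830 to 24177 in the rd6 libraries other than rd6 5 (64670) and 34172 to 74023 in WT. Here and below a gene is called higher or lower at a limma Benjamini-Hochberg q below 0.05 and a log2 difference of at least 0.81 in size, limits that 4.69% of the tested genes passed upward, 2.12% downward and 6.8% in all. WT 4 stood apart in 8 markers of the ocular surface epithelium (sum 211467, at most 11213 in the other WT libraries), and in rd6 the sums ran from 1297 to 53491 in rd6 1 and 87031 in rd6 5.

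*Serpine3* was an abundant transcript in WT and was counted at 0 or a few reads in rd6. WT 1 to 6 had 1053, 1105, 2915, 2150, 2047 and 4855 normalized counts, a mean of 2354 ± 1411 (SD, n = 6). In rd6, libraries 1, 2 and 3 had 0, and libraries 4, 5 and 6 had 1.91, 3.61 and 4.97. All 6 rd6 libraries lay below all 6 WT libraries, as they did for 5.67% of the tested genes, and the lowest WT value was 212-fold above the highest rd6 value. In reads, 14035 fell on the gene in WT and 11 in rd6, and 4 of the 6 rd6 libraries were at or under the floor. Scaled for the size factors of the libraries, the rd6 reads were 0.0755% of those of WT (exact 95% interval 0.0377 to 0.135%). This interval, and those given below for *Upk3b* and *Pi15*, treat the pooled reads of a genotype as independent. They leave out the spread between libraries, and amplified reads are not independent molecules, so they do not test the difference. The fitted log2 difference was -9.94 on the log2(value + 1) scale, the largest fall of the tested genes, but it depends on the value added because rd6 is near 0.

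*Upk3b* was similarly abundant in WT and kept a low but countable level in every rd6 library. WT 1 to 6 had 2437, 2651, 2828, 2320, 3491 and 5040 normalized counts, a mean of 3128 ± 1023. The rd6 libraries 1 to 6 had 12.6, 5.15, 15.4, 17.2, 23.5 and 15.9, a mean of 15.0 ± 6.01. The groups did not overlap, and the lowest WT value was 98.8-fold above the highest rd6 value. In contrast to *Serpine3*, no rd6 library was at the floor: 5 to 26 reads were counted in each, 93 in all against 18523 in WT. Scaled in the same way, the residual was 0.484% of WT (exact 95% interval 0.390 to 0.593%), and the fitted log2 difference of -7.67 was second among the falls.

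*Pi15* was a rare transcript already in WT. WT 1 to 6 had 57.2, 21.7, 35.3, 48.6, 34.3 and 23.2 normalized counts, a mean of 36.7 ± 14.0. The rd6 libraries 1 to 6 had 3.88, 1.03, 2.05, 0.955, 0 and 1.99, a mean of 1.65 ± 1.33. The groups did not overlap here either, but the gap was narrower, 5.59-fold between the lowest WT and the highest rd6 value. There were 218 reads in WT and 10 in rd6, a residual of 4.42% of WT after the same scaling (exact 95% interval 2.09 to 8.29%). In rd6, 5 of 6 libraries were at or under the floor of 3 reads, so a level in a single rd6 library could not be resolved at this depth. The fitted log2 difference was -3.91, rank 5 among the falls.

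**Figure D1:**
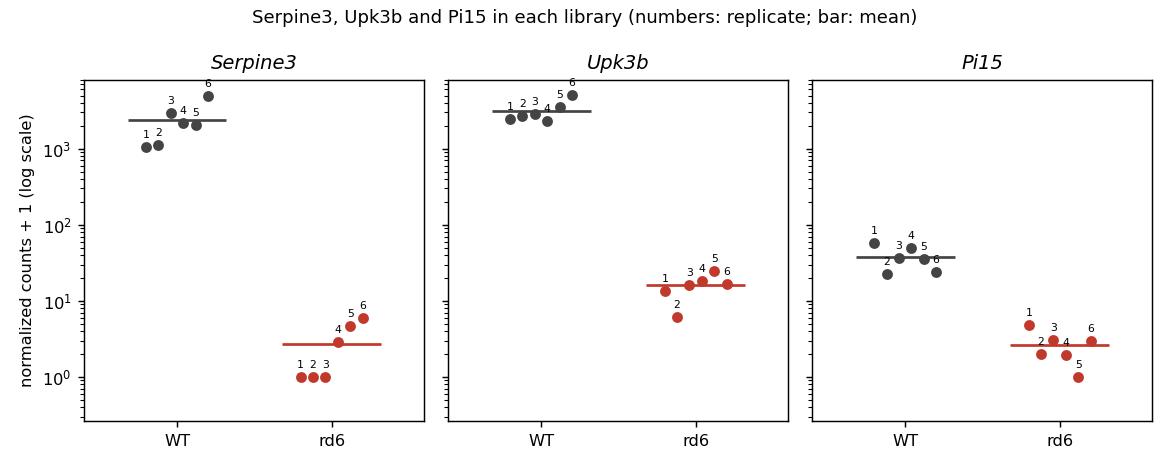
Normalized counts + 1 (log scale) of *Serpine3*, *Upk3b* and *Pi15* in each WT and rd6 library, with numbers for the replicate and a bar for the group mean. The rd6 libraries lie below the WT libraries in each panel, down to 0 reads in 3 libraries for *Serpine3* and in 1 for *Pi15*, while *Upk3b* stays between 5.15 and 23.5.

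Per kb of exon, which allows levels of different genes to be compared, *Serpine3* had a mean WT level of 1679 normalized counts, *Upk3b* 886 and *Pi15* 5.30. Of the tested genes, 5.39% had a higher WT level per kb than *Serpine3*, 10.3% than *Upk3b* and 94.3% than *Pi15*. In rd6 the levels per kb were 1.25, 4.24 and 0.238, so *Upk3b* took the first place from *Serpine3*. *Mfrp* itself was at 9234 per kb in WT and 5972 in rd6.

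Because all 3 genes were selected for their low rd6 level, the cutoff is described by what lies on either side of it. Of the 12757 tested genes with a WT mean of at least 100, 2 had an rd6 mean under 1% of WT, and these were *Serpine3* at 0.0743% and *Upk3b* at 0.478%. The next genes were *Mobp* at 3.51% and *Htr3a*, a serotonin receptor subunit, at 6.85%, both on chromosome 9 like *Mfrp*. *Htr3a* lies at chr9:48899213-48911099. The strain of the rd6 mice was not given, and a strain difference linked to *Mfrp* was not tested. *Pi15*, at 4.50% of WT, lies below this WT mean and was 1 of 7 tested genes of any level under 5%. *Serpine3* and *Pi15* passed the filter of a mean of 10 through their WT libraries alone, and *Upk3b* reached a mean of 10 in both groups. In bulk RNA, fewer cells of a type and less RNA per cell cannot be told apart.

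The WT libraries differed among themselves far more for *Serpine3* than for most genes of its level. The highest WT library exceeded the lowest 4.61-fold, and the coefficient of variation (SD over mean) was 59.9%, against 2.07% from counting alone. Of the 3885 tested genes with a WT mean within 2-fold of that of *Serpine3*, 35 (0.901%) varied more, and the median of these genes was 8.46%. The high value was that of WT 6, without which the coefficient was 42.2%. *Xist* exceeded 1000 normalized counts in 2 libraries of each genotype and was at most 57.6 in the others. In WT these were WT 3 and 4, and their *Serpine3* values of 2915 and 2150 lay inside the range of the others.

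*Upk3b* varied less, 2.17-fold between the highest and the lowest WT library, with a coefficient of variation of 32.7% (1.80% from counting). Among 3103 genes of a similar level 78 (2.51%) varied more, at a median of 8.43%. This spread rested on WT 6, the highest library for *Upk3b* as for *Serpine3*, and without it the coefficient was 16.8%. For *Pi15* the WT range was 2.64-fold and the coefficient 38.1%, against 16.6% from counting alone, and 908 of 2958 genes of a similar level (30.7%) varied more. The highest library for *Pi15* was WT 1, and WT 6 was the second lowest. For comparison, *Mfrp* varied 1.51-fold with a coefficient of 13.7%.

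**Figure D2:**
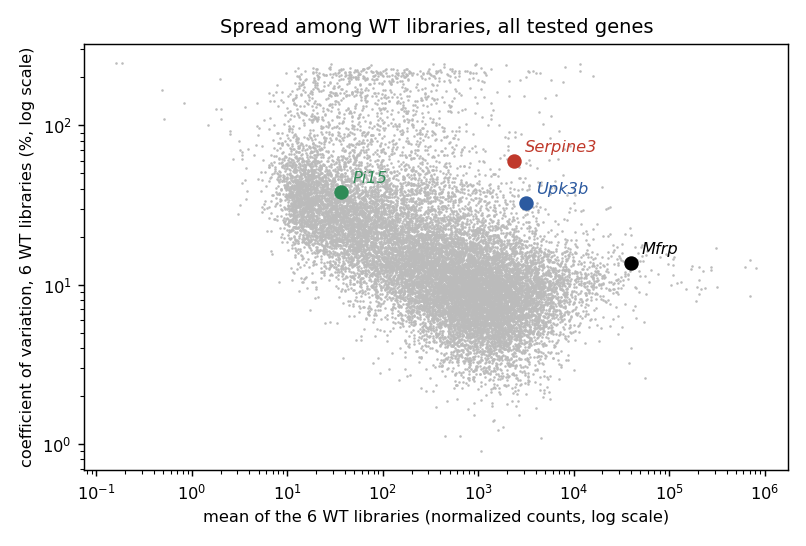
Coefficient of variation over the 6 WT libraries (%, log scale) against the mean WT level (normalized counts, log scale) for all 17768 tested genes, 1 point a gene. *Serpine3* (59.9%) and *Upk3b* (32.7%) lie near the top of the genes at their level, and *Pi15* (38.1%) lies inside the broad cloud of rare transcripts.

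Whether the genes rose and fell together was examined within the 6 WT libraries. The WT level entered the choice of the genes, but the order of the WT libraries among themselves did not. *Serpine3* and *Upk3b* had Pearson r = 0.75 on log2 values (exact permutation p = 0.0847, n = 6) and Spearman rho = 0.54 (exact permutation p = 0.297). Without WT 5 and WT 6, the libraries farthest from the median of *Upk3b*, r was 0.29, so the relation rests on these libraries. *Pi15* had r = -0.33 with *Serpine3* (exact permutation p = 0.538, n = 6) and rho = -0.26 (exact permutation p = 0.658), and r = -0.85 without WT 1 and WT 2. Its r with *Upk3b* was -0.61 (exact permutation p = 0.203, n = 6) with rho = -0.60 (exact permutation p = 0.242), and -0.97 without WT 1 and WT 2. None of these relations passed a two-sided test.

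Of 33 relations of the 3 genes with each other, with *Mfrp* and with marker lists, the smallest raw p belonged to *Upk3b* and the mean of the RPE markers, at r = 0.84 (exact permutation p = 0.0417, Benjamini-Hochberg q = 0.984, n = 6) and rho = 0.77 (exact permutation p = 0.103). Leaving out the 2 farthest libraries gave 0.67. With *Mfrp*, r was -0.20 for *Serpine3*, 0.36 for *Upk3b* and -0.35 for *Pi15*, and none of the 33 relations passed after adjustment.

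The genes most like each of them over all 12 libraries were picked by Pearson r of log2(value + 1) among tested genes with a WT mean of at least 100. These values share the genotype difference, so r is high for lower genes whose groups lie far apart for their spread. They are therefore given without p. For *Serpine3* they were *Wfikkn2* (0.993), *Upk3b* (0.990) and *Bco2* (0.984), and for *Upk3b* they were *Wfikkn2* (0.991), *Serpine3* (0.990) and *Htr3a* (0.984). *Bco2* (chr9:50533087-50555181) and *Htr3a* lie on the chromosome of *Mfrp*. *Wfikkn2*, whose product is a secreted protein with several protease inhibitor modules, had 11857, 11914, 14336, 11100, 12146 and 15402 normalized counts in WT 1 to 6. In rd6 1 to 6 it had 1352, 1221, 1894, 2126, 2376 and 2590, a log2 difference of -2.77 (limma q = 2.9e-07). Thus WT 6 was the highest WT library for *Wfikkn2* too. For *Pi15* the nearest were *Bcl2* (0.976), *Lpar2* (0.968) and *Pdzd2* (0.967). None of them was called, since their log2 differences of -0.75, -0.44 and -0.75 were under the fold limit. Each had every rd6 library below every WT library (limma q = 6.6e-06, 0.00060 and 4.8e-06). As many as 214, 249 and 223 genes reached r = 0.9 with *Serpine3*, *Upk3b* and *Pi15*.

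Within the 6 WT libraries other genes came first. They were *Sav1* (0.985), *Jcad* (0.977) and *Afap1l2* (0.975) for *Serpine3*, and *Crebl2* (0.995), *Slc7a5* (0.991) and *E2f6* (0.988) for *Upk3b*. For *Pi15* they were *Ube2l6* (0.986), *Lmo2* (0.984) and *Gm16740* (0.982). Over these 6 points 54, 172 and 27 genes reached r = 0.9.

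Of the other serpins, none was called lower in rd6. Of 42 serpins listed, 20 others were tested, and 6 were higher in rd6 and 0 lower, with a median log2 difference of 0.74 against 0.00 over all tested genes. At an unadjusted limma p below 0.05 there were likewise 0 lower serpins, edgeR gave 0 and DESeq2 gave 1. *Serpine2*, of its clade, went from 1845 ± 521 normalized counts to 2900 ± 657, a log2 difference of 0.67 ± 0.19 (SE, limma q = 0.0222) that is under the fold limit.

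The called serpins were from other clades. *Serpina3n*, an acute-phase inhibitor of chymotrypsin-like proteases, rose from 2077 ± 1876 to 12269 ± 1548 normalized counts (log2 difference 3.18 ± 0.58, SE, limma q = 0.0018). *Serpinf2*, the inhibitor of plasmin, rose from 82.2 ± 18.9 to 260 ± 27.0 (log2 1.67). *Serpina3m*, *Serpinb1a* and *Serpinb1c* rose by log2 3.26, 2.37 and 3.15, and *Serpinb6b* by 0.92, but the Serpina3 and Serpinb1 genes have near-identical copies between which reads may have been split. The microglia and macrophage markers given above were also higher in rd6 as a group, and the part of those cells in these rises was not tested. Among the rd6 libraries the order was not shared by all. In rd6 1, where the sum of those markers was lowest (25286), *Serpina3n* was at its highest rd6 value (14371) and *Serpinf2* at its lowest (227).

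The protease systems that serpins act on were listed as well. Of 11 tested genes of the plasminogen system 3 were higher and 0 lower (1 lower at an unadjusted limma p below 0.05, 0 by edgeR and by DESeq2). edgeR and DESeq2 each gave 2 higher genes. Those of limma were *Hpn*, a membrane protease (10.8 to 47.1 normalized counts, log2 2.13), *Serpinf2* and the urokinase gene *Plau* (36.9 ± 38.4 to 88.4, log2 1.62). *Plat*, the tissue plasminogen activator, had 398 in WT and 272 in rd6 (limma q = 0.056). Of 31 trypsin-like proteases, some of them in both lists, 4 were higher (*Tmprss11a*, *Hpn*, *Plau* and *Klk8*) and 0 lower (2 lower at an unadjusted limma p below 0.05, 0 by edgeR and by DESeq2). *Tmprss11a* (log2 2.48) is a protease of surface epithelia with 477 ± 994 in WT, an SD above the mean, and WT 4 held most of it. Its call ended with edgeR, with the replicate block and without any single library other than WT 4. The call of *Klk8* ended with the replicate block, with a pseudocount of 10 and without WT 1, WT 2 or rd6 1, and that of *Plau* with edgeR. DESeq2 gave no p for *Plau* and *Tmprss11a*. Of 14 other secreted inhibitors in a list of Kunitz, Kazal and WAP families and single genes, which does not hold the lower *Wfikkn2* described above, *A2m*, *Wfdc17* and *Wfdc3* were higher and 0 lower (1 lower at an unadjusted limma p below 0.05, 0 by edgeR and by DESeq2). *A2m*, alpha-2-macroglobulin, a trap for proteases of many classes, went from 15105 ± 1264 to 94116 ± 5438 normalized counts (log2 2.64 ± 0.07, SE).

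The other uroplakins gave no called gene. *Upk1a*, *Upk2* and *Upk3a* were under the filter, and of *Upk1b* and *Upk3bl* 0 were called in either direction by limma, edgeR or DESeq2, or had an unadjusted limma p below 0.05. *Upk1b*, a tetraspanin partner of the urothelial uroplakins, had 107, 398, 109, 4862, 123 and 308 normalized counts in WT 1 to 6. In rd6 1 to 6 it had 1744, 710, 86.3, 14.3, 2953 and 32.8, so the groups overlapped (log2 difference -0.40 ± 1.37, SE, limma q = 0.862). *Upk3bl*, the paralog next to *Upk3b*, had 1992, 2489, 2158, 8608, 2584 and 2569 in WT 1 to 6 and 4136, 2886, 2222, 2005, 5742 and 2057 in rd6 1 to 6. Its groups overlapped as well (log2 difference 0.01 ± 0.36, SE, limma q = 0.992). Both genes were highest in WT 4 and rd6 5, the libraries highest in ocular surface markers, whereas *Upk3b* was at its lowest WT value, 2320, in WT 4.

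**Figure D3:**
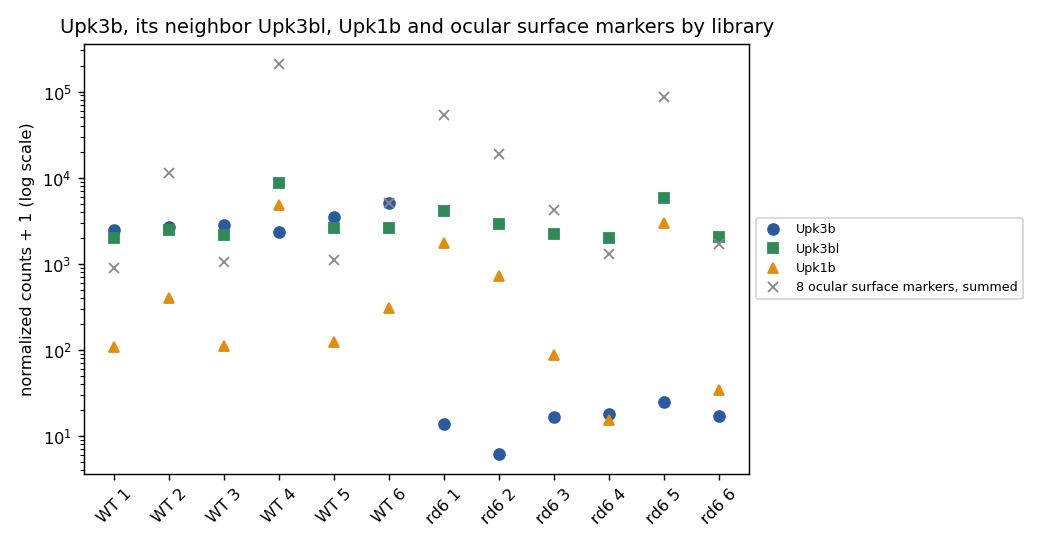
Normalized counts + 1 (log scale) of *Upk3b*, *Upk3bl*, *Upk1b* and the sum of 8 ocular surface markers in each of the 12 libraries. *Upk3b* drops from 2320 or more in WT to 23.5 or less in rd6, while *Upk3bl* and *Upk1b* peak with the surface markers in WT 4 and rd6 5.

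The uroplakin is known from mesothelium, so a list of mesothelial markers was examined. *Upk3b* was not on this list, and its uroplakin was *Upk1b*, described above. Of 12 listed, 10 were in the table and 6 were tested, with 0 called by limma, edgeR or DESeq2 and 1 lower at an unadjusted limma p below 0.05. The list summed to 44926 to 53588 normalized counts in WT and 40399 to 46131 in rd6, most of it from *Krt18*, *Gpm6a* and *Krt8* (WT means 24316, 15848 and 8270), genes that other epithelia and neural cells also express. *Msln* was at 9.09 in WT and 7.16 in rd6 and *Wt1* at 1.65 and 0.161, and *Cldn15* and *Rspo1* were under the filter as well. For the epithelia of the ciliary body and iris, 1 of 10 markers was lower (*Bmp4*) and 0 higher by limma, edgeR or DESeq2 (0 at an unadjusted limma p below 0.05).

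In the CAP superfamily, to which *Pi15* belongs, 6 other genes were tested, of which 1 was higher and 1 lower in rd6. *Crispld2*, a secreted relative of *Pi15*, fell from 1306 ± 318 to 534 ± 296 normalized counts (log2 difference -1.46 ± 0.35, SE, limma q = 0.0093). Its rd6 values were 909, 783 and 685 in rd6 1 to 3 and 218, 252 and 356 in rd6 4 to 6. The sum of 9 choroid stroma markers was likewise 22435 to 24396 in rd6 1 to 3 and 12428 to 15540 in rd6 4 to 6, against 17532 to 25987 in WT. Of the 9, 1 (*Pdgfra*) was lower in rd6 and 0 higher, and edgeR and DESeq2 each gave the same counts. At an unadjusted limma p below 0.05 4 were lower and 1 higher. The part of stroma in the *Crispld2* result was not tested. *Glipr1* rose from 12.9 to 32.3 (log2 1.24, limma q = 0.0144), a call that ended with the replicate number as a block. *Clec18a* was lower by log2 -0.62 (limma q = 0.0019), under the fold limit. *Pi16* (949 in WT, 791 in rd6), *Crispld1* (158 and 133) and *Glipr2* (55.9 and 58.9) did not pass the test. The median log2 difference of the 6 was -0.34.

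**Figure D4:**
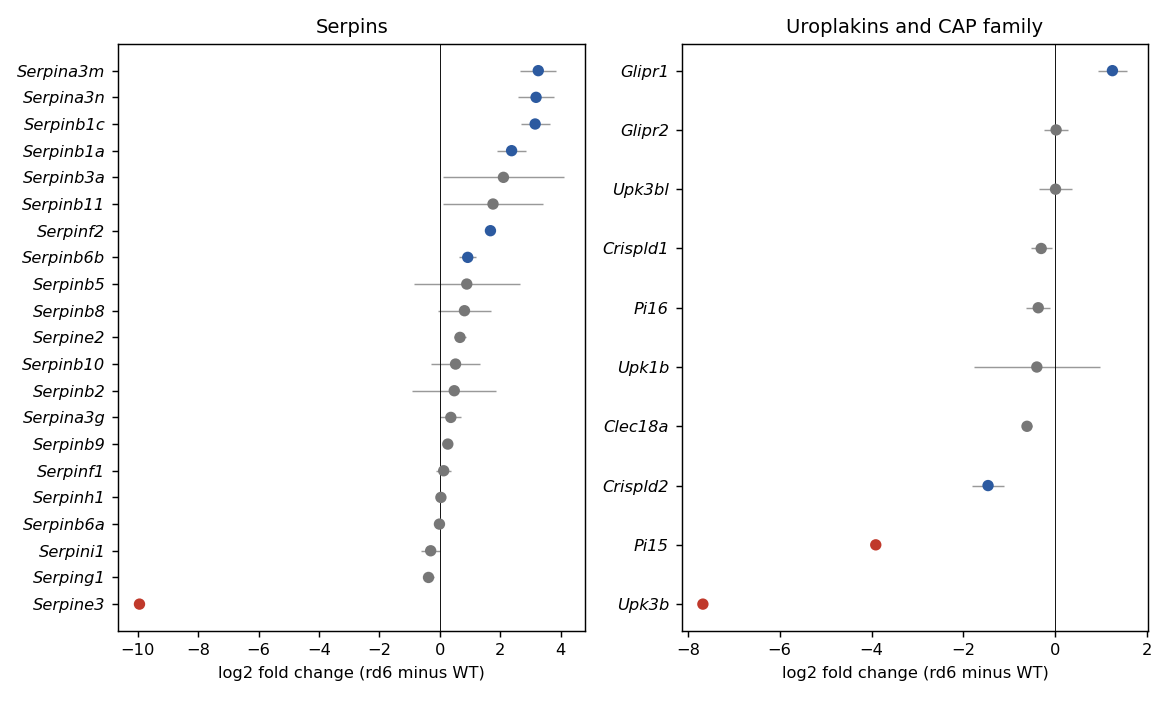
Log2 difference of rd6 minus WT for the tested serpins (left) and for the tested uroplakins and CAP genes (right), with bars for the SE. Blue genes passed both limits, red points are *Serpine3* (-9.94), *Upk3b* (-7.67) and *Pi15* (-3.91) without a test, and the other serpins range up to 3.26.

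Sequence shared with some paralogs was examined on the annotated transcripts. The longest run of identical bases between *Serpine3* and *Serpine2* was 12, and between *Upk3b* and *Upk3bl* it was also 12. *Pi15* and *Crispld1* shared 30 bases and *Pi15* and *Crispld2* 18. Each of these runs was shorter than the read length of 100 bases, and other pairs of genes were not compared.

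The genes around each locus were then examined. Within 500 kb of the 3 genes 33 genes were tested, of which 1 was higher and 0 lower in rd6 (4 lower at an unadjusted limma p below 0.05, 0 by edgeR and by DESeq2). The median log2 difference of the neighbors was -0.09 over 10 genes around *Serpine3*, 0.05 over 20 around *Upk3b* and -0.14 over 3 around *Pi15*. The called neighbor was *Sh2b2*, an adaptor of receptor tyrosine kinases near *Upk3b* (19.1 to 49.7 normalized counts, log2 1.33 ± 0.21, SE, limma q = 0.00067).

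*Serpine3* overlaps *Ints6*, a subunit of the Integrator complex on the opposite strand, in 348 of its 1402 exon bases. *Ints6* was at 486 ± 50.5 normalized counts in WT against 441 ± 48.3 in rd6 (log2 -0.14 ± 0.09, SE, limma q = 0.290). The libraries were stranded and counted with the standard parameters of Rsubread, and no strand setting was named, so the few rd6 reads on *Serpine3* cannot be told apart from reads of *Ints6*. The nearest protein-coding genes without overlap were *Fam124a*, 55.2 kb upstream (42.4 in WT, 55.1 in rd6, limma q = 0.223), and *Wdfy2*, 145 kb downstream (log2 -0.18, limma q = 0.121). Around *Upk3b* the nearest were *Dtx2*, 5.62 kb upstream (480 and 425, limma q = 0.0815), and *Upk3bl*, 8.01 kb downstream. Around *Pi15* they were *Gdap1*, 438 kb upstream, and its paralog *Crispld1*, 96.1 kb downstream. An antisense gene, *Gm28154*, overlaps *Pi15* in 68 exon bases and was under the filter (2.01 in WT, 3.43 in rd6).

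**Figure D5:**
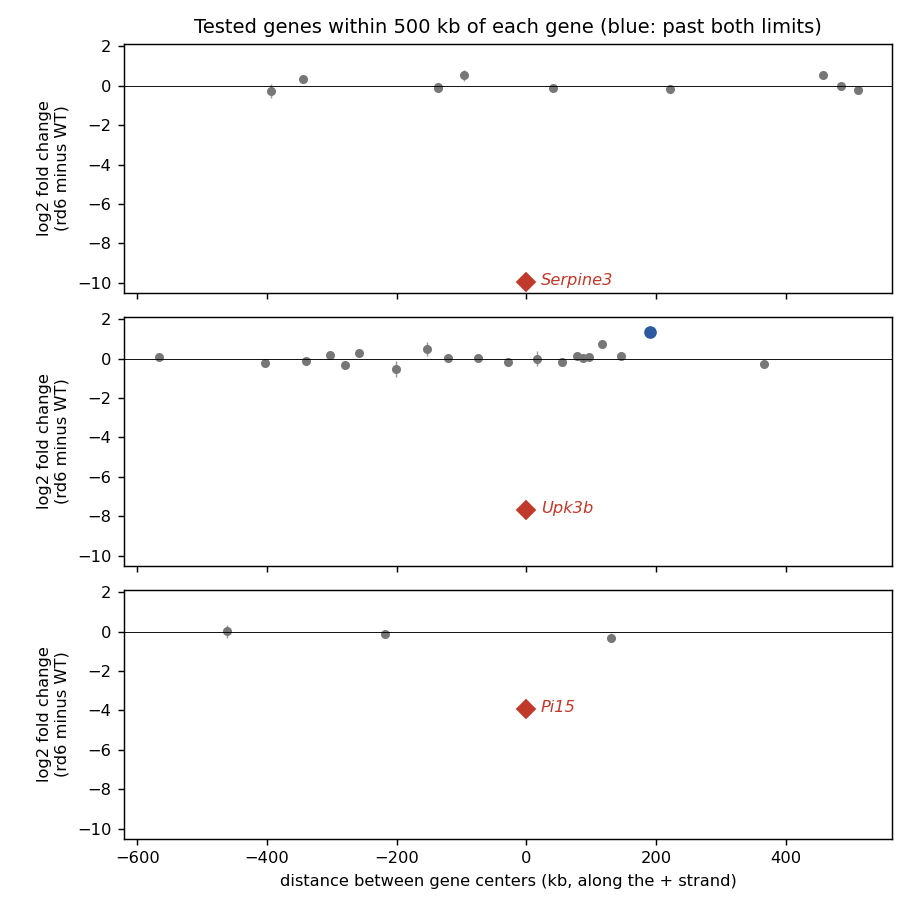
Log2 difference of rd6 minus WT against the distance between gene centers (kb, along the + strand) for the tested genes within 500 kb of *Serpine3*, *Upk3b* and *Pi15*, with bars for the SE. The neighbors lie between -0.52 and 1.33, and *Sh2b2* (blue) passed both limits, while the red diamonds are the 3 genes themselves, given without a test.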

How the data were processed

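Total RNA of mouse RPE (6 WT, 6 rd6, RPE of both eyes per library) was made into stranded libraries and sequenced as pairs of 100 bases. The authors aligned and counted reads on mm10 genes with Rsubread at standard parameters and deposited, for each gene in each library, a signal made by dividing its reads by the size factor from DESeq2. Tool versions were not given in the sources used here. The authors also deposited a mean over libraries, log2 fold changes with standard errors, a Wald score, and p-values with adjusted p-values from their own comparison, and none of these columns was used. The table held 28596 entries for 28591 genes, and 5 repeated entries of 4 identifiers were dropped. All values (100%) were whole multiples of the value of 1 read within a tolerance of 0.001, so reads were recovered.

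Groups came from the sample labels. Because values were normalized, rd6 and WT were compared with limma 3.58.1 (lmFit, eBayes with trend, R 4.3.3) on log2(value + 1), for the 17768 genes whose mean reached 10, genotype being the only term. The pseudocount understates changes of low genes. The limits were a Benjamini-Hochberg q below 0.05 over all tested genes and 1.75-fold. The 3 genes were part of this fit and of its counts, but since they were chosen on this contrast their own p-values are not given. The fit was tested on simulated data. Relations within WT were tested by exact permutation of log2 values (two-sided, scipy 1.17.1). Intervals of read shares are exact binomial on reads pooled over the libraries of each genotype, and leave out the spread between libraries. Nothing says that libraries came from separate litters, so p-values measure the spread between these samples.

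GENCODE M21 (GRCm38, also named mm10) gave the coordinates of 28545 genes, and promoters are from RefSeq. Named are the 3 genes, *Mfrp*, *Nnt*, called genes of each list (at most 4 by size of change), *Serpine2* of the serpins of clade E, all tested uroplakins and CAP genes, overlapping, nearest and called neighbors within 500 kb, and the 3 genes most like each. A gene that this rule selects is not reported here and was left out of the lists. Others (*Plat*, *Serpinb6b*, the markers and the genes with the lowest rd6 share) were chosen after their values were seen. Members and lists were chosen with earlier results of these data known. The settings changed were the pseudocount (0.1 or 10), the filter (none, or 10 in every library), TMM rescaling, edgeR 4.0.16 and DESeq2 1.42.0 on the recovered reads, a replicate block, and leaving out each library. Leaving out WT 4 and rd6 5 was added after seeing the data.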

Additional observations from a re-analysis of the deposited data

Results flagged for a closer look

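Among 96 groups of 6 libraries, those of the 48 genes that the naming rule selects, 10 held a library far from the others by Dixon's criterion. Its limit is set for about 1 in 20 groups of independent normal values. These genes are not independent and most flags fell on WT 4, so the count cannot be set against that rate. The marker genes and the genes named after their values were seen were not screened, except those that the rule also selects, such as *Upk1b* and *Htr3a*. *Serpine3*, *Upk3b* and *Pi15* were screened and were not among the flagged genes. In WT 4, the library highest in ocular surface markers, the relatives and proteases stood out: *Upk1b* at 4862 normalized counts (next highest WT library 398), *Upk3bl* at 8608 (2584), *Tmprss11a* at 2505 (103), *Serpinb1a* at 444 (91.9), *Serpinb1c* at 6.80 (2.21), *Plau* at 115 and *Hpn* at 24.3 (10.6). *Pdzd2* at 2973 (2635) and *Fam124a* at 94.2 (41.6) were also highest in WT 4. In rd6, *Gdap1*, the distant neighbor of *Pi15*, was at 149.9 in rd6 5 (next highest 43.9).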

How the results depend on the processing

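All 3 genes stayed lower in rd6 under each alternative that kept them in the fit, and the filter of 10 in every library removed them. Their log2 difference moved with the pseudocount, to -11.78 at 0.1 and -7.47 at 10 for *Serpine3*, to -6.96 at 10 for *Upk3b*, and to -4.93 and -1.96 for *Pi15*; leaving out single libraries gave -10.25 to -9.69, -7.82 to -7.42 and -4.12 to -3.66. Leaving out single libraries moved the WT coefficient of variation between 42.2 and 69.0% for *Serpine3*, 16.8 and 36.9% for *Upk3b*, and 33.3 and 42.2% for *Pi15*. Within WT it moved r between 0.33 and 0.85 for *Serpine3* with *Upk3b*, -0.91 and 0.06 for *Serpine3* with *Pi15* (0.064 without WT 6, 0.046 without WT 1), and -0.94 and -0.41 for *Upk3b* with *Pi15*, and with *Mfrp* between -0.63 and 0.065 (*Serpine3*), -0.12 and 0.62 (*Upk3b*) and -0.93 and 0.12 (*Pi15*). The sign of r thus changed for *Serpine3* with *Pi15* and for the relations with *Mfrp*. Of the lists, lower serpins numbered 1 with DESeq2 and 1 without the filter; higher CAP genes 0 with at least 10 in every library and 0 with the replicate block; higher trypsin-like proteases 2 with edgeR, 2 with the replicate block and 2 to 4 without single libraries (2 without WT 1, WT 2 or rd6 1); lower ones 1 with at least 10 in every library and 0 to 1 without single libraries (1 without rd6 1, rd6 2 or rd6 3). Called neighbors numbered 2 with DESeq2, 2 without the filter and 1 to 2 without single libraries (2 without WT 4 or rd6 5). In these cases the cause was not tested. Same-numbered libraries did not deviate together (correlation of deviations -0.743 to 0.315), and the replicate block left 980 of 1209 calls by count, 969 of them shared. Without WT 4 and rd6 5, an alternative added after seeing the data, 962 genes were higher and 550 lower. TMM moved the median log2 difference of all genes from 0.00 to 0.03.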

Other observations

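Besides *Serpine3* and *Upk3b*, 5 tested genes with a WT mean of at least 100 had an rd6 mean under 10% of WT. They were named after their values were seen, except *Htr3a*, which the naming rule also selects. *Htr3a*, a subunit of the serotonin-gated channel, had 2990, 3384, 3748, 2459, 4054 and 5524 normalized counts in WT 1 to 6 and 235, 277, 246, 268, 188 and 303 in rd6 1 to 6, with no overlap. *Nog*, the gene of the BMP antagonist noggin, went from a mean of 4217 to 374, and *B230206H07Rik* from 142 to 13.1. *Mobp*, a gene of myelin, had 205 ± 274 (SD, n = 6) in WT and 7.20 in rd6, and *Slurp1*, a secreted protein of surface epithelia, had 442 ± 1071 and 35.0, so that for both of these the WT spread exceeded the mean.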
